A study of Mus musculus with 15 samples.

Results

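The interferon response genes described here are 39 transcripts that mouse cells switch on when interferons bind their receptors. They were taken by symbol from a table of read counts for 24015 genes, and all 39 were found and passed the filter on low counts. RNA came from the inguinal fat pad, a subcutaneous white adipose depot, of C57BL/6 mice. All mice had been kept at thermoneutrality for 2 weeks and had then received intraperitoneal injections for 5 days. Young_Ctrl mice were 2 months old and received vehicle (n = 4 libraries), and Young_CL mice were 2 months old and received CL (n = 4). Old_Ctrl mice were 12 months old and received vehicle (n = 3, replicates 1, 3 and 4, with replicate 2 not analysed here), and Old_CL mice were 12 months old and received CL (n = 4). The labels expand CL as cardiolipin, but the letters also abbreviate a β-adrenergic agonist, and the name CL is kept because the labels do not settle it. Whether the libraries of a group come from separate animals is not given in the labels. The p-values therefore measure the spread between these samples, which may in part be technical.

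Type I interferons (the α and β forms) signal through the receptor chains Ifnar1 and Ifnar2 to a complex containing Stat2 and Irf9, which binds the interferon-stimulated response element (ISRE) in the promoters of target genes. Interferon γ signals through Ifngr1 and Ifngr2 and acts on a separate promoter element, the gamma-activated site (GAS). Many of the induced proteins sense viral RNA or DNA, block viral replication or attack membranes around pathogens, and in adipose tissue both resident immune cells and adipocytes can express them.

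Sequence is shown for 6 promoters, because they carry the ISRE core in genes with small p-values in the comparisons below. The RefSeq promoter table (build GRCm38.p6) matched 31 of the 39 genes by symbol. The ISRE core (the letters GAAA, any 2 bases, then GAAA again), searched on both strands in the 250 bases before the start, was present in 15 of 31 matched members, or 48.4%, against 3.04% of the 27025 genes in the table. The GAS core TTCNNNGAA, searched the same way, was present in 10 of 31 members (32.3%) against 7.18% of all genes. The 2 motifs overlapped each other in 1 member, Bst2. The ISRE core was found in 6 of 7 matched interferon-inducible GTPase genes, 3 of 8 other effectors and 0 of 3 nucleic acid sensor genes. The most frequent form was GAAACTGAAA, the match nearest to the start in 8 of the 15 members. Capitals mark every ISRE core match as it reads on the strand of the gene, and the last base printed lies just before the start.
Bst2 (chr8:71537473-71537722, minus strand): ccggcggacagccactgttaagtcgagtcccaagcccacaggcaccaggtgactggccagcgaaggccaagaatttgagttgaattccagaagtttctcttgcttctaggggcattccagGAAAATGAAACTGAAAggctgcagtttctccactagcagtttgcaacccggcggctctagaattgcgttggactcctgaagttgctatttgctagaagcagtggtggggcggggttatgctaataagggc
Igtp (chr11:58199306-58199555, plus strand): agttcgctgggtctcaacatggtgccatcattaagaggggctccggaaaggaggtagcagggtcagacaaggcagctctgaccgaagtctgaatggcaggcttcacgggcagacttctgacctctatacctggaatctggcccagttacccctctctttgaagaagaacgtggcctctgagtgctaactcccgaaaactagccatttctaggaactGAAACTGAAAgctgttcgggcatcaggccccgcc
Irgm2 (chr11:58214727-58214976, plus strand): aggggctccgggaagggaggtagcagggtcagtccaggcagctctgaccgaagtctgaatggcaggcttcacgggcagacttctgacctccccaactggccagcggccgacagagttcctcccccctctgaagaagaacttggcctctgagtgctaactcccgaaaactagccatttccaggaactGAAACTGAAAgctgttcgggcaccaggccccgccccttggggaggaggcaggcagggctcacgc
Irgm1 (chr11:48871421-48871670, minus strand): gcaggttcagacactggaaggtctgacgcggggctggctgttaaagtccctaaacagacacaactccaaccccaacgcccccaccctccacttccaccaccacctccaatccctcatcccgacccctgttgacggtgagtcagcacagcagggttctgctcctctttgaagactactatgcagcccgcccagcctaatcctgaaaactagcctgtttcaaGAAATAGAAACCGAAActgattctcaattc
Oas3 (chr5:120777660-120777909, minus strand): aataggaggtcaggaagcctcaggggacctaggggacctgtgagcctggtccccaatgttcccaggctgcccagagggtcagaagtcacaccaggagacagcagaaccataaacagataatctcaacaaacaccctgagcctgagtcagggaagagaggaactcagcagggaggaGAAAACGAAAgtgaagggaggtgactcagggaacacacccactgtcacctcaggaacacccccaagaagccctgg
Trim30a (chr7:104465194-104465443, minus strand): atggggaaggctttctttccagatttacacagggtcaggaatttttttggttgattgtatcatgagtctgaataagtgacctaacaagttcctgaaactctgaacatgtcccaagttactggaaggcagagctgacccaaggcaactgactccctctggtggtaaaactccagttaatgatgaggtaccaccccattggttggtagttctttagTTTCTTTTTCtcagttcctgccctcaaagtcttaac
The core match nearest to the start begins 124 bases before it in the promoter of Bst2 and 34 bases before it in that of Igtp. It begins 64 bases before the start in Irgm2, 24 in Irgm1, 75 in Oas3 and 36 in Trim30a, where the core lies on the opposite strand. In Irgm1 and in Bst2 a pair of overlapping cores forms 1 longer run of capitals. The promoters of Igtp and Irgm2, which lie close together on chromosome 11, share a run of 55 identical bases. The longest run shared by any other pair of these 6 was 12 bases.

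Total counts ran from 6115542 to 51577001 per library. Levels are CPM, depth-scaled counts with totals adjusted by the trimmed mean of M-values (TMM), and changes are log2 changes with standard errors (SE) from the quasi-likelihood test of edgeR, called at a Benjamini-Hochberg adjusted p under 0.05 over 15288 tested genes. The tissue label was checked against adipocyte markers, of which Adipoq had group means from 1474 to 5070.2 CPM. Skeletal muscle transcripts were abundant in 5 libraries, Young_CL 1, 2 and 3, Old_Ctrl 3 and Old_CL 3. The remaining Young_CL library, Young_CL 4, was itself unlike the rest of its group. Its summed macrophage markers stood at 885 CPM, against 1615 to 1898 in the others. Its summed stromal progenitor markers stood at 636.9 CPM, against 1742 to 2208. Old_CL 1, 2 and 4 were nearly alike, with a robust SD of log2 ratios of at most 0.0933 between them and of at least 0.116 in all other pairs of libraries of the same group. Old_Ctrl 1 stood apart for the genes described here, being the highest of the 3 Old_Ctrl libraries for 39 of 39 members, against 31.7% of all tested genes. Counts of called members are given also without Old_Ctrl 1, without the muscle-rich libraries, or with Old_CL 1, 2 and 4 summed. Each is given where those libraries enter the comparison. Results for the other pathway genes and the cell type markers are given with all libraries only. In the RefSeq annotation 12 members overlap another gene, and since the sources used here do not say whether counting used strand, part of their counts is uncertain. They are Stat2 (with Apof), Ifih1 (Gm39839), Dhx58 (Gm38483), Eif2ak2 (Gm26637 and Gm6548), Ifit1 (Ifit1bl1), Isg15 (Gm46878), Usp18 (Gm44148), Gbp2 (Mir6381), Gbp3 (Gm40158), Ifi47 (Gm12188), Rtp4 (Masp1) and Trim30a (Gm25405).

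At 12 months, interferon response genes were lower after CL than after vehicle: 32 of 39 fell and 1 rose. Of all tested genes 22.2% were called lower and 23.1% higher in this comparison. The median log2 change of the members was -0.89, against -0.01 for all tested genes. The fall was at least 2-fold for 18 members. The share of all tested genes with such a fall was not computed, here or for the 2-fold counts below. For 31 members every CL library lay below every vehicle library, as held for 25.0% of all tested genes. Without Old_Ctrl 1, 24 members fell (median -0.64), against 17.5% of all genes, and the change was at least 2-fold for 8. With Old_CL 1, 2 and 4 summed to 1 sample, 24 fell, and without the 5 muscle-rich libraries 31 fell. Neither of these last counts is set beside the share of all tested genes called in the same fit. In bulk tissue, fewer cells that carry these transcripts and less transcript per cell cannot be told apart.

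At 2 months the same comparison gave smaller changes, with 17 of 39 members lower and 1 higher after CL, against 22.1% and 21.7% of all tested genes. The median was -0.41, and -0.07 for all tested genes. Groups did not overlap, with CL lower, for 12 members, against 16.1% of all tested genes. All 17 were also lower at 12 months. A further 15 members fell at 12 months and were not called at 2 months, which by itself does not show that the 2 responses differ. Without the 5 muscle-rich libraries 5 members were lower at 2 months, 2 of them among the 17, in a fit that left Young_CL 4 as the only young CL library and assumed that it varies like the other groups.

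**Figure D1:**
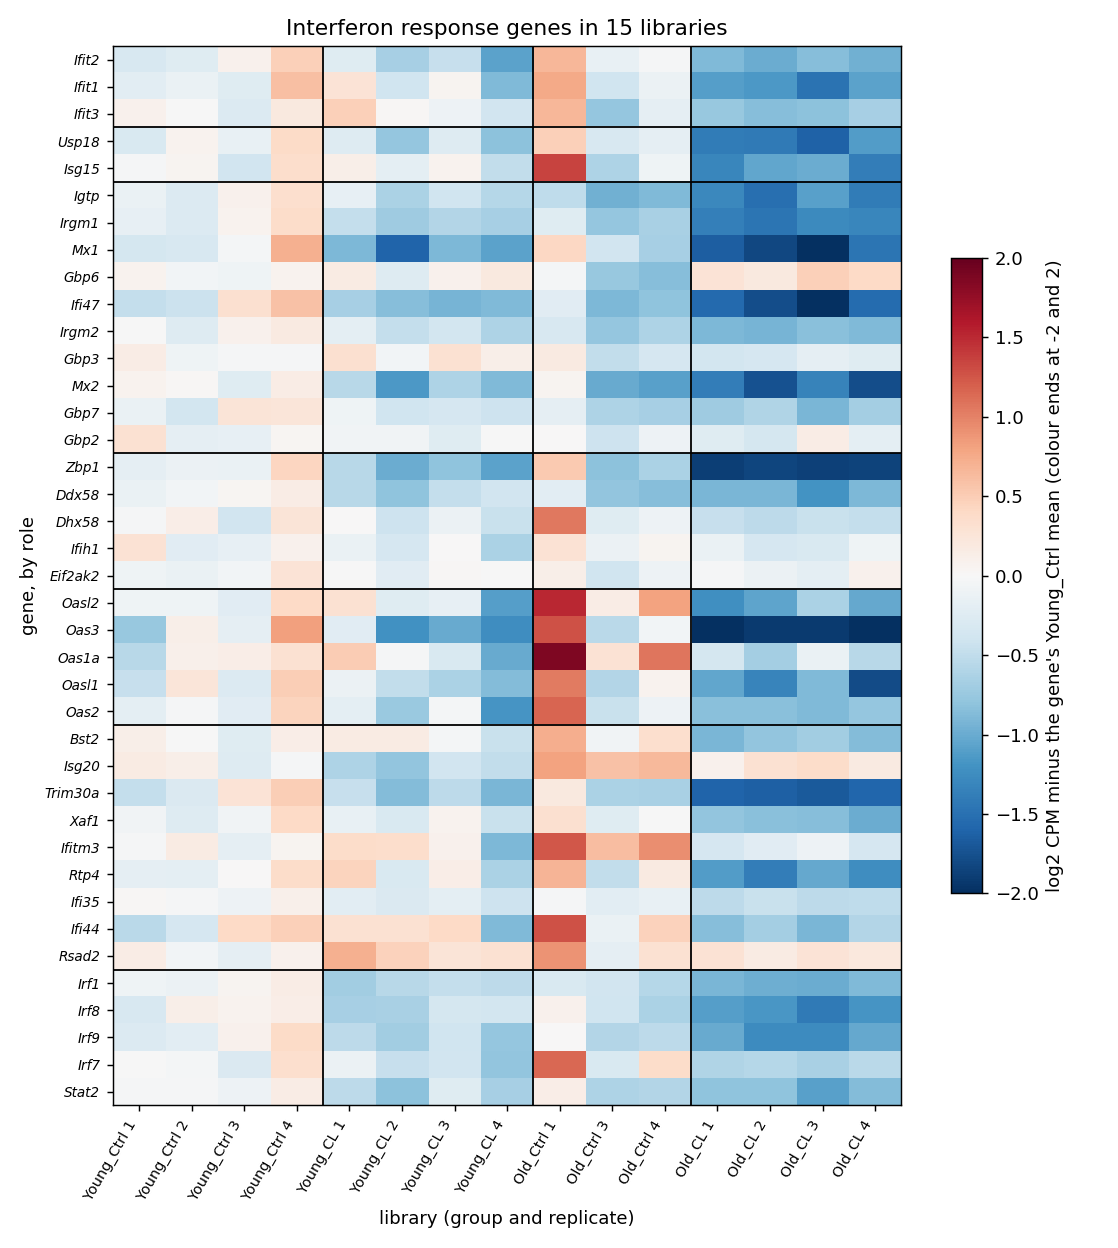
Log2 CPM of each of the 39 genes in each of the 15 libraries, minus the mean of the gene in Young_Ctrl, with genes grouped by role and libraries by group. The Old_CL columns are blue in most rows, Old_Ctrl 1 is the reddest Old_Ctrl column, and Gbp6, Isg20 and Rsad2 are the rows in which Old_CL is mostly red.

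The transcription factor genes gave the most even picture, with 4 of 5 lower after CL at 2 months and 5 of 5 at 12 months. Irf1, an early interferon γ target that switches on other members, stood at 163, 159, 179 and 189.9 CPM in Young_Ctrl and 107, 117, 124 and 119 CPM in Young_CL. It stood at 139, 132 and 116 CPM in Old_Ctrl and 91.4, 87.1, 86.9 and 92.8 CPM in Old_CL. CL libraries lay below vehicle libraries at both ages, without overlap. The edgeR log2 change with CL was -0.57 (SE 0.09, adjusted p = 0.00011) at 2 months and -0.52 (SE 0.09, adjusted p = 0.00044) at 12 months. Irf9, which gives the interferon α and β complex its DNA specificity, stood at 72.5, 75.9, 93.2 and 115 CPM in Young_Ctrl against 60.8, 54.2, 66.3 and 51.1 CPM in Young_CL. At 12 months it stood at 87.6, 58.2 and 61.0 CPM with vehicle and 43.6, 36.7, 36.7 and 42.9 CPM with CL. It fell at both ages, by 0.62 and 0.78 on the log2 scale (edgeR adjusted p = 0.0045 and 0.0016), again with no overlap. Irf8, a factor of dendritic cells, macrophages and B cells, stood at 129, 176, 169.8 and 177 CPM in Young_Ctrl and 101, 103, 126 and 125 CPM in Young_CL. It stood at 171, 122 and 104 CPM in Old_Ctrl and 75.5, 72.0, 60.5 and 71.6 CPM in Old_CL. Every CL library was below every vehicle library of its age, and the edgeR log2 changes were -0.52 (adjusted p = 0.0099) and -0.92 (adjusted p = 0.00035). Stat2, the partner of Irf9, fell by 0.55 at 2 months and 0.56 at 12 months (edgeR adjusted p = 0.0099 and 0.013), and without Old_Ctrl 1 the second value was -0.28 (adjusted p = 0.12). Irf7, which drives interferon α production, was called lower at 12 months (log2 change -1.10, SE 0.25, edgeR adjusted p = 0.0025), with -0.43 (adjusted p = 0.14) at 2 months. Without Old_Ctrl 1 it was called at both ages, with -0.65 (edgeR adjusted p = 0.018) at 12 months and -0.43 (adjusted p = 0.044) at 2 months.

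Among the 5 nucleic acid sensor genes 2 fell with CL at 2 months and 3 at 12 months. Zbp1, a sensor of left-handed nucleic acid that can trigger cell death, had the smallest p of this role. It stood at 37.9, 39.9, 39.1 and 58.3 CPM in Young_Ctrl, 29.4, 21.6, 24.7 and 20.5 CPM in Young_CL, 61.7, 24.3 and 27.6 CPM in Old_Ctrl and 11.6, 12.0, 11.8 and 11.9 CPM in Old_CL. CL libraries were below vehicle libraries at both ages, and the Old_CL libraries were the lowest of all 15. The edgeR log2 change was -0.87 (SE 0.24, adjusted p = 0.0091) at 2 months and -1.64 (SE 0.26, adjusted p = 0.00023) at 12 months, or -1.13 without Old_Ctrl 1. Ddx58, the RNA sensor RIG-I, stood at 75.0, 79.6, 84.8 and 91.0 CPM in Young_Ctrl and 56.2, 47.2, 59.0 and 62.9 CPM in Young_CL. At 12 months it stood at 71.2, 47.9 and 45.8 CPM with vehicle and 43.6, 43.9, 35.9 and 44.0 CPM with CL. Its groups did not overlap at either age, and it fell by 0.56 and 0.38 on the log2 scale (edgeR adjusted p = 0.0036 and 0.04). The call at 12 months was lost without Old_Ctrl 1 (-0.16, adjusted p = 0.31). Dhx58, a regulator of RNA sensing, stood at 18.4, 20.5, 14.4 and 22.5 CPM in Young_Ctrl and 18.9, 14.1, 17.2 and 13.7 CPM in Young_CL, which overlap. It stood at 38.8, 15.8 and 17.5 CPM in Old_Ctrl and 13.6, 13.0, 13.7 and 13.5 CPM in Old_CL. The fall at 12 months, 0.79 on the log2 scale (edgeR adjusted p = 0.017), also rested on Old_Ctrl 1, without which it was -0.30 (adjusted p = 0.16). The RNA sensor gene Ifih1 and the translation-blocking kinase gene Eif2ak2 passed the test in none of the 5 comparisons, with log2 changes with CL of -0.27 and -0.07 at 2 months and -0.28 and 0.06 at 12 months.

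The oligoadenylate synthetase family, whose enzymes make the messenger that activates RNA degradation, had the most negative median of the 7 roles at 12 months. All 5 fell with CL at 12 months (median log2 change -1.58) and 0 of 5 by edgeR at 2 months (median -0.52), where 1 had an unadjusted p under 0.05 and 1 was called by DESeq2 and 0 by limma-voom. Without Old_Ctrl 1, Oas3 was called lower at 2 months (-0.96, edgeR adjusted p = 0.015). Oas3 stood at 8.68, 15.99, 13.0 and 25.8 CPM in Young_Ctrl and 12.5, 6.37, 7.29 and 6.22 CPM in Young_CL. It stood at 35.6, 10.1 and 14.2 CPM in Old_Ctrl and 3.64, 3.89, 3.91 and 3.50 CPM in Old_CL. The Old_CL libraries were the lowest of all 15, and Old_Ctrl 1 was the highest. The edgeR log2 change was -0.96 (SE 0.38, adjusted p = 0.053) at 2 months and -2.36 (SE 0.42, adjusted p = 0.00055) at 12 months, the latter -1.69 (adjusted p = 0.0021) without Old_Ctrl 1. Oasl2, a family member with ubiquitin-like domains, stood at 27.1, 27.1, 24.5 and 37.9 CPM in Young_Ctrl and 35.4, 24.2, 25.5 and 13.3 CPM in Young_CL. At 12 months it stood at 81.4, 32.0 and 50.3 CPM with vehicle and 12.3, 13.9, 18.6 and 14.1 CPM with CL. The groups overlapped at 2 months and not at 12 months. The edgeR log2 change was -0.24 (adjusted p = 0.53) at 2 months and -1.86 (SE 0.31, adjusted p = 0.00036) at 12 months. Oas1a stood at 6.45, 10.1, 10.3 and 11.6 CPM in Young_Ctrl, 13.4, 9.27, 7.62 and 4.69 CPM in Young_CL, 34.4, 11.5 and 19.8 CPM in Old_Ctrl and 7.42, 5.89, 8.61 and 6.39 CPM in Old_CL. It fell at 12 months by 1.58 (edgeR adjusted p = 0.002), with -0.12 (adjusted p = 0.78) at 2 months. Oasl1 and Oas2 fell at 12 months by 1.49 and 1.17. Without Old_Ctrl 1 the change of Oasl1 was -0.99 (edgeR adjusted p = 0.016), and Oas2 lost its call (-0.57, adjusted p = 0.081).

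The 3 genes of the IFIT family, whose proteins bind foreign RNA, all fell with CL at 12 months, and 1 of them fell at 2 months. Ifit2 stood at 21.8, 23.1, 29.0 and 38.1 CPM in Young_Ctrl and 23.2, 17.2, 19.9 and 13.0 CPM in Young_CL. It stood at 43.5, 24.8 and 27.0 CPM in Old_Ctrl and 14.8, 13.7, 15.1 and 14.1 CPM in Old_CL. It fell at both ages, with an overlap of libraries at 2 months and none at 12 months (edgeR log2 changes -0.62 and -1.12, SE 0.21 and 0.22, adjusted p = 0.025 and 0.00098). Ifit1 stood at 17.1, 18.1, 16.7 and 30.0 CPM in Young_Ctrl, 24.1, 15.02, 20.5 and 10.7 CPM in Young_CL, 33.7, 15.1 and 18.3 CPM in Old_Ctrl and 9.27, 8.96, 7.17 and 9.45 CPM in Old_CL. The young groups overlapped and the old groups did not, with edgeR log2 changes of -0.23 (adjusted p = 0.53) and -1.33 (SE 0.30, adjusted p = 0.0026). Ifit3 stood at 39.6, 37.3, 31.0 and 42.8 CPM in Young_Ctrl and 52.01, 38.0, 35.0 and 28.6 CPM in Young_CL. At 12 months it stood at 59.4, 21.9 and 33.1 CPM with vehicle and 22.2, 20.7, 21.1 and 23.7 CPM with CL, which overlap. Its fall of 0.76 at 12 months (edgeR adjusted p = 0.026) was lost without Old_Ctrl 1 (-0.32, adjusted p = 0.23).

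Isg15, a ubiquitin-like modifier, and Usp18, the protease that removes it and also restrains the interferon α receptor, both fell with CL at 12 months. Isg15 stood at 15.1, 15.99, 11.8 and 19.7 CPM in Young_Ctrl and 16.7, 13.4, 16.2 and 10.99 CPM in Young_CL. It stood at 39.5, 10.003 and 14.5 CPM in Old_Ctrl and 6.20, 7.46, 7.76 and 5.89 CPM in Old_CL. Old_Ctrl 1 was far above the other Old_Ctrl libraries, and the log2 change at 12 months was -1.58 (SE 0.35, edgeR adjusted p = 0.0023) with it and -0.83 (adjusted p = 0.0084) without it. Usp18 stood at 20.9, 27.1, 23.4 and 33.9 CPM in Young_Ctrl, 21.7, 15.2, 21.5 and 14.7 CPM in Young_CL, 36.0, 20.7 and 22.9 CPM in Old_Ctrl and 9.77, 9.72, 8.41 and 12.0 CPM in Old_CL. It fell at both ages, by 0.54 at 2 months and 1.39 at 12 months (edgeR adjusted p = 0.038 and 0.00015).

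The 10 interferon-inducible GTPase genes, which act on pathogen vacuoles or viral particles, were split. With CL, 6 fell at 2 months, and at 12 months 6 fell and 1 rose. Mx1, an inhibitor of viral replication, stood at 21.2, 21.6, 26.1 and 44.0 CPM in Young_Ctrl and 14.5, 8.83, 14.4 and 12.8 CPM in Young_CL. It stood at 36.0, 20.7 and 17.0 CPM in Old_Ctrl and 8.56, 7.58, 6.29 and 9.79 CPM in Old_CL. No CL library reached the vehicle libraries of its age. The edgeR log2 changes were -1.18 (SE 0.27, adjusted p = 0.0028) and -1.59 (SE 0.29, adjusted p = 0.0006), and Mx1 was the 1 member with a fall of at least 2-fold at 2 months. Igtp, a vacuole-directed GTPase, stood at 72.2, 65.6, 83.7 and 99.6 CPM in Young_Ctrl and 70.7, 51.3, 59.99 and 53.6 CPM in Young_CL. It stood at 55.5, 40.8 and 43.0 CPM in Old_Ctrl and 32.5, 28.0, 37.2 and 30.0 CPM in Old_CL. The level fell with CL (edgeR log2 change -0.45 at 2 months and -0.53 at 12 months, adjusted p = 0.02 and 0.013), and the second call was lost without Old_Ctrl 1 (-0.39, adjusted p = 0.077). Irgm1, a regulator of that family, stood at 69.3, 64.6, 81.6 and 101 CPM in Young_Ctrl, 56.1, 47.7, 51.7 and 49.3 CPM in Young_CL, 66.0, 45.7 and 49.5 CPM in Old_Ctrl and 30.2, 28.2, 32.2 and 31.5 CPM in Old_CL. Its groups did not overlap, and the edgeR log2 change with CL was -0.63 (SE 0.13, adjusted p = 0.0017) and -0.81 (SE 0.14, adjusted p = 0.00049). Ifi47, Mx2 and Irgm2 fell at both ages, by 0.91 and 1.09, 0.79 and 0.86, and 0.41 and 0.32 on the log2 scale, and the calls of Mx2 and Irgm2 at 12 months were lost without Old_Ctrl 1 (-0.49 and -0.20, edgeR adjusted p = 0.076 and 0.24). Of the guanylate-binding protein genes, Gbp2, Gbp3 and Gbp7 did not pass the test with CL at either age (log2 changes from -0.33 to 0.17). Gbp6 rose at 12 months, from 15.2 to 26.8 CPM in the Old_Ctrl libraries to 31.3 to 38.0 CPM in the Old_CL libraries (edgeR log2 change 0.87, SE 0.17, adjusted p = 0.0007).

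Among the 9 other effectors, 8 fell with CL at 12 months, while 3 fell and 1 rose at 2 months. Bst2, the tethering protein that holds budding virus at the membrane, stood at 103, 94.6, 80.2 and 104 CPM in Young_Ctrl and 107, 107, 92.1 and 70.2 CPM in Young_CL. It stood at 157, 90.9 and 120.4 CPM in Old_Ctrl and 50.4, 54.8, 58.6 and 52.04 CPM in Old_CL. The young groups overlapped, and every Old_CL library was below the other 11. The edgeR log2 change was -0.02 (SE 0.16, adjusted p = 0.92) at 2 months and -1.18 (SE 0.17, adjusted p = 9.2e-05) at 12 months, the latter -0.97 (adjusted p = 0.0007) without Old_Ctrl 1. Trim30a, a ring-finger protein that restrains inflammatory signalling, stood at 62.6, 70.8, 105 and 123 CPM in Young_Ctrl and 63.1, 47.7, 60.3 and 46.3 CPM in Young_CL. At 12 months it stood at 99.6, 56.0 and 55.4 CPM with vehicle and 28.6, 28.1, 27.1 and 28.9 CPM with CL. It fell at both ages, by 0.74 and 1.31 on the log2 scale (edgeR adjusted p = 0.012 and 0.00048), with a slight overlap at 2 months. Isg20, an exonuclease of single-stranded RNA, stood at 13.8, 13.3, 10.2 and 12.0 CPM in Young_Ctrl, 7.97, 7.11, 9.45 and 8.73 CPM in Young_CL, 21.5, 18.5 and 19.2 CPM in Old_Ctrl and 13.0, 15.2, 15.9 and 13.96 CPM in Old_CL. It fell with CL at both ages without overlap (edgeR log2 change -0.58 and -0.44, SE 0.12 and 0.13, adjusted p = 0.0017 and 0.011). Rtp4, Ifi44, Ifitm3 and Xaf1 fell at 12 months by 1.36, 1.33, 1.20 and 0.89 and had changes between -0.23 and 0.06 at 2 months, none called. Ifi35 fell by 0.27 and 0.37. Rsad2, the antiviral enzyme viperin, was the member that rose at 2 months (edgeR log2 change 0.45, SE 0.18, adjusted p = 0.049), a call at the threshold that was lost under several alternatives, and its value at 12 months was -0.14 (adjusted p = 0.55).

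**Figure D2:**
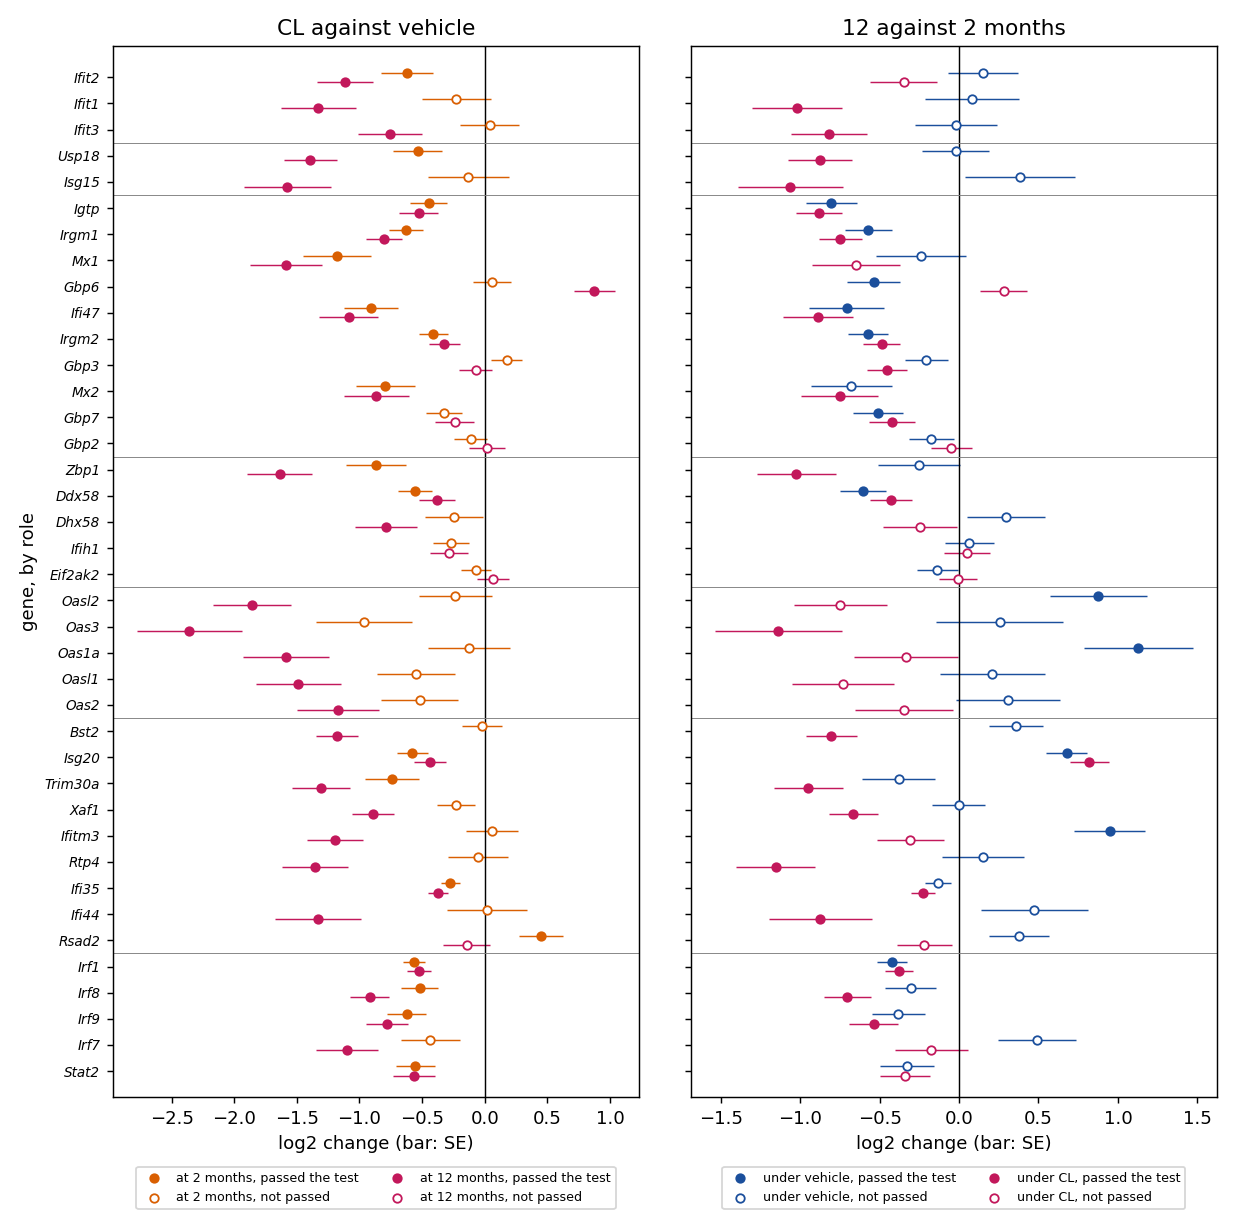
Log2 change (horizontal axis, bars show SE) of each of the 39 genes with CL at 2 and at 12 months (left) and with age under vehicle and under CL (right), with filled points where the edgeR test was passed. On the left the 12-month points lie mostly farther below 0 than the 2-month points, and on the right the vehicle points fall on both sides of 0.

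The log2 change with CL was more negative at 12 than at 2 months for 31 of 39 members. That held for 7905 of the 15288 tested genes. The age by CL interaction tested the difference for each gene. A gene was called lower (a more negative response at 12 months) for 4 members and higher for 1, against 3.77% and 3.31% of all tested genes. The median interaction was -0.50 on the log2 scale, and -0.02 over all tested genes. Bst2 had an interaction of -1.16 (SE 0.23, edgeR adjusted p = 0.01), which kept its call in 24 of 26 alternative fits. Ifitm3, a membrane protein that blocks viral entry, had -1.26 (SE 0.31, edgeR adjusted p = 0.025), Rtp4 -1.30 (SE 0.36, adjusted p = 0.04), Oasl2 -1.62 (SE 0.43, adjusted p = 0.036) and Gbp6 0.82 (SE 0.22, adjusted p = 0.039). These 4 kept the call in 16, 9, 9 and 11 of 26 alternative fits. Of the fits that each left out 1 library, those without Old_Ctrl 3, Young_CL 4 and Young_Ctrl 4 called 12, 9 and 7 members lower, that without Old_CL 3 called 4, and the other 11 called 1 or 2. Without Old_Ctrl 1 the median interaction of the members was -0.06, and 1 member was called lower and 1 higher. With Old_CL 1, 2 and 4 summed, or without the muscle-rich libraries, 0 members were called by edgeR in either direction, with 10 and 5 lower and 1 and 0 higher at an unadjusted p under 0.05.

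**Figure D3:**
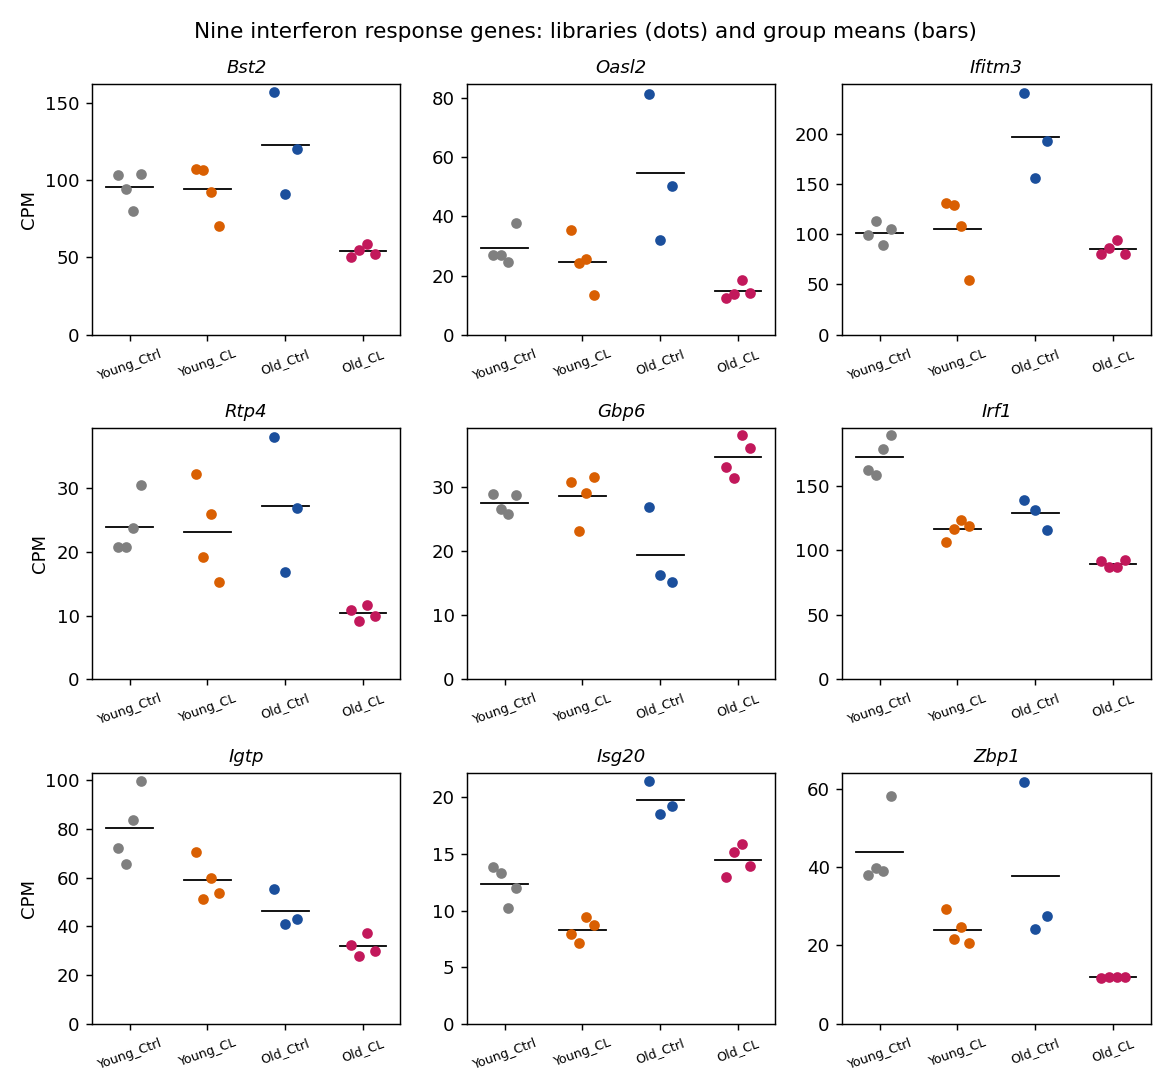
CPM in each library (dots) and group mean (bars) for 9 of the genes, on linear axes that start at 0. Bst2, Oasl2, Ifitm3 and Rtp4 have their lowest group mean in Old_CL, Gbp6 has its highest mean there, and Irf1 and Igtp step down with CL and with age.

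With age under vehicle, 27 of 39 members were not called in either direction. At 12 against 2 months 4 members were higher and 8 lower, against 15.1% and 12.2% of all tested genes, with a median of -0.02 (0.03 over all tested genes). The 4 higher were Oas1a (log2 change 1.13, SE 0.34, edgeR adjusted p = 0.026), Ifitm3 (0.95, adjusted p = 0.0076), Oasl2 (0.88, adjusted p = 0.047) and Isg20 (0.68, adjusted p = 0.0024). Ifitm3 stood at 89.3 to 113 CPM in Young_Ctrl and 156 to 241 CPM in Old_Ctrl, and Isg20 likewise did not overlap. The 8 lower were 6 GTPase genes, Igtp (-0.80, edgeR adjusted p = 0.0031), Ifi47 (-0.71), Irgm1 (-0.57), Irgm2 (-0.57), Gbp6 (-0.54) and Gbp7 (-0.51), with Ddx58 (-0.60) and Irf1 (-0.42). Old_Ctrl 1 weighed on this comparison: without it 2 members, Ifitm3 and Isg20, were higher and 15 lower, with a median of -0.30. The changes of Oasl2 and Oas1a were then 0.49 (edgeR adjusted p = 0.23) and 0.68 (adjusted p = 0.14), and the 8 lower members all kept their calls. With all libraries, limma-voom called 0 and DESeq2 called 2 of the 5 oligoadenylate synthetase genes higher. Without Old_Ctrl 3 the counts were 7 higher and 5 lower, and without Old_Ctrl 4 they were 2 and 3. Leaving out Young_Ctrl 4 gave 5 lower, and leaving out Young_Ctrl 1 or 3 gave 2 higher.

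Under CL, 23 members were lower and 1 higher at 12 than at 2 months, against 19.4% and 20.5% of all tested genes. The median was -0.54, and -0.01 over all tested genes, and 24 members did not overlap with the older mice lower, against 21.4% of all tested genes. The most negative values were those of Rtp4 (-1.15, edgeR adjusted p = 0.0021), Oas3 (-1.14, adjusted p = 0.035), Isg15 (-1.06, adjusted p = 0.019), Zbp1 (-1.02, adjusted p = 0.0045) and Ifit1 (-1.02, adjusted p = 0.01). Isg20 was the higher one (0.82, SE 0.12, edgeR adjusted p = 0.00015). In all, 7 members were lower with age under both treatments, namely Igtp, Irgm1, Irgm2, Ifi47, Gbp7, Ddx58 and Irf1. The count depended on the libraries named at the start: 13 members were lower with Old_CL 1, 2 and 4 summed, and 1 without the muscle-rich libraries. Shares of all tested genes called in those fits are not given here. The members called in none of the 5 comparisons were Gbp2, Ifih1 and Eif2ak2.

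The genes that make, receive and limit the interferon signal were examined as a wider list of 97 genes, of which 96 were in the table and 85 passed the filter. With CL, 5 were higher and 52 lower at 2 months, against 21.7% and 22.1% of all tested genes, with a median of -0.45. At 12 months 8 were higher and 61 lower, against 23.1% and 22.2%, with a median of -0.56. With age, 9 were higher and 23 lower under vehicle, against 15.1% and 12.2%, and 7 higher and 43 lower under CL, against 20.5% and 19.4%. Of the 11 ligand genes none passed the filter. Ifnb1 had 1 count in 1 library and 0 in the others, and Ifna1, Ifna2, Ifna5, Ifnl2 and Ifnl3 had 0 counts in all 15. A count of 0 allows up to 3 counts, or 0.497 CPM in the shallowest library and 0.0538 CPM in the deepest (counting error only). Ifng, the interferon γ gene, had 0 to 14 counts per library.

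Among the receptor genes the chains of 1 receptor did not move together. Ifnar1 stood at 121, 127, 126 and 126 CPM in Young_Ctrl and 95.7, 95.7, 101 and 109 CPM in Young_CL, and it fell (edgeR log2 change -0.32, adjusted p = 0.0067). Ifnar2 stood at 94.1, 80.7, 77.1 and 77.3 CPM in Young_Ctrl and 110.1, 109, 103 and 109.6 CPM in Young_CL, and it rose (0.39, adjusted p = 0.0035). Neither pair of groups overlapped. At 12 months Ifnar1 had a log2 change of -0.11 (edgeR adjusted p = 0.32), and Ifnar2 rose by 0.27 (adjusted p = 0.041). Ifngr1 stood at 178 to 218 CPM in the 8 libraries of 2 months, 244, 309.7 and 329 CPM in Old_Ctrl and 358, 393, 449.9 and 362 CPM in Old_CL. It rose with age under vehicle (edgeR log2 change 0.59, adjusted p = 0.0033) and under CL (1.04, SE 0.11, adjusted p = 9.1e-06). Ifngr2, its partner chain, fell with CL at both ages (-0.33 and -0.45, edgeR adjusted p = 0.022 and 0.0054). Il10rb, a chain of the interferon λ receptor shared with interleukin receptors, also fell (-0.48 and -0.51, edgeR adjusted p = 0.0016 and 0.0017).

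Of 11 genes that restrain the pathway, 9 fell and 1 rose with CL at 2 months, and 8 fell and 1 rose at 12 months. Socs1, the feedback inhibitor of the receptor kinases, fell from 18.4 ± 4.97 to 11.3 ± 1.53 CPM at 2 months and from 15.9 ± 1.21 to 5.79 ± 0.946 CPM at 12 months (SD, n = 4, 4, 3 and 4, edgeR log2 change -0.74 and -1.47, adjusted p = 0.0039 and 5.1e-05). Samhd1, which depletes nucleotides, fell by 0.61 and 0.90. The gene that rose was Nlrx1, a mitochondrial protein, from 19.4 ± 6.33 to 41.2 ± 3.35 CPM at 2 months and from 23.6 ± 1.99 to 63.9 ± 3.57 CPM at 12 months (edgeR log2 change 1.11 and 1.43, adjusted p = 9.5e-05 and 3.8e-05). Of 14 sensing and adaptor genes, 10 fell and 1 rose at 12 months, with the endosomal RNA sensor Tlr7 at -1.41 (edgeR adjusted p = 0.00018), the transcription factor gene Irf5 at -0.91 (adjusted p = 7.9e-05) and the DNA sensor Aim2 at -0.87 (adjusted p = 0.00084). Of 49 other induced genes, 28 fell and 2 rose at 2 months and 37 fell and 4 rose at 12 months. The immunoproteasome subunit genes Psmb8 and Psmb9 fell by 0.43 and 0.29 at 2 months and by 0.78 and 0.70 at 12 months. Ifi27, a mitochondrial protein gene of the interferon set, went the other way, from 342, 235, 203 and 191 CPM in Young_Ctrl to 1122, 1038, 895 and 1001 CPM in Young_CL. It stood at 223, 229.7 and 297 CPM in Old_Ctrl and 587, 607, 814 and 602 CPM in Old_CL. It rose at both ages without overlap (edgeR log2 change 2.06 and 1.38, SE 0.18 and 0.20, adjusted p = 4.8e-07 and 9.2e-05).

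Markers of immune cells, adipocytes and stromal progenitors moved in the same comparisons as the interferon response genes. All 9 T cell markers were lower with CL at both ages, and their summed level ran from 631 to 1171 CPM in Young_Ctrl, 497 to 559.8 in Young_CL, 492 to 561 in Old_Ctrl and 161 to 258 in Old_CL. Of 7 B cell and lymph node markers, 7 were lower with CL at 2 months and 5 at 12 months, and the sums ran from 1158 to 1629 CPM in Young_Ctrl, 680.1 to 972 in Young_CL, 399.7 to 827 in Old_Ctrl and 364 to 480.5 in Old_CL. Of 8 macrophage markers, 0 passed the edgeR test with CL at 2 months (0 at an unadjusted p under 0.05, and 0 by DESeq2 or limma-voom), 5 were lower with CL at 12 months, and 6 were higher with age under vehicle. Their sums ran from 1536 to 1901 CPM in Young_Ctrl, 885 to 1898 in Young_CL, 2179.8 to 4215 in Old_Ctrl and 1532 to 2276 in Old_CL. Old_Ctrl 1, the highest of the 3 Old_Ctrl libraries for all 39 members, was also the library with the highest macrophage sum, 4215 CPM. Old_Ctrl 4 was close to it, with 3949 CPM. Among the 3 Old_Ctrl libraries, Old_Ctrl 1 was also the highest for the T cell, B cell and natural killer sums (561, 827 and 53.2 CPM). Old_Ctrl 3 was close to it for T cells (558.9 CPM) and Old_Ctrl 4 for natural killer cells (51.2 CPM). By mean log2 CPM, Old_Ctrl 1 was the lowest of the 3 for natural killer markers (2.04, against 2.06 and 2.17). The sum of the neutrophil markers was 23.8 CPM in Old_Ctrl 1, 7.53 in Old_Ctrl 3 and 11.7 in Old_Ctrl 4. Old_Ctrl 1 was not the highest for the plasmacytoid dendritic cell or adipocyte sums. For the former, the muscle-rich Old_Ctrl 3 was the highest (155.6 CPM, against 135 in Old_Ctrl 1). Markers of that list did not move together, with log2 changes with CL at 2 months from -1.34 to 1.75. Their sum therefore cannot be read as the amount of these cells. Of 5 plasmacytoid dendritic cell markers other than Bst2, 3 were lower with CL at each age, with sums from 128 to 162 CPM in Young_Ctrl, 128 to 146 in Young_CL, 122 to 156 in Old_Ctrl and 103 to 112 in Old_CL. Of 6 natural killer markers, 3 were lower with CL at 2 months and 4 at 12 months, and 6 were lower with age under CL, with sums from 41.4 to 75.96 CPM in Young_Ctrl, 34.04 to 41.5 in Young_CL, 42.04 to 53.2 in Old_Ctrl and 15.02 to 19.5 in Old_CL. Of 8 adipocyte markers, 6 were higher with CL at 2 months (median log2 change 0.92) and 7 at 12 months (1.20). Their sums ran from 10675 to 25090 CPM in Young_Ctrl, 35854 to 42546 in Young_CL, 18166 to 28107 in Old_Ctrl and 46087 to 60755 in Old_CL. Of 5 stromal progenitor markers, 1 was lower with CL at 2 months and 4 at 12 months (median -1.32), and 3 were higher with age under vehicle. Their sums ran from 1747 to 2301 CPM in Young_Ctrl, 636.9 to 2208 in Young_CL, 3027 to 4870 in Old_Ctrl and 1371 to 1574 in Old_CL. Old_Ctrl 1 had the highest sum, while by mean log2 CPM Old_Ctrl 4 was slightly above it (8.83 against 8.81). Apart from the neutrophil markers, none of the markers given here was at 0 in any library. With the mean of the T cell and B cell markers in the fit, 1 member, Bst2, was called lower with CL at 12 months (edgeR log2 change -1.37, adjusted p = 0.017) and 1, Isg20, at 2 months (-0.72, adjusted p = 0.03). Calls over all tested genes were then also fewer (3.02% lower at 12 months). That mean differs between the groups, so the 2 cannot be told apart. With the mean of the macrophage markers in the fit, 17 members were lower with CL at 12 months and 17 at 2 months. These counts are not set beside the share of all tested genes called in the same fit. At 12 months the macrophage mean also differs between the groups (8.20 in Old_Ctrl and 7.23 in Old_CL). That fit therefore cannot separate cell content from treatment either. The part of these cells in the changes of the interferon response genes was not tested.

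**Figure D4:**
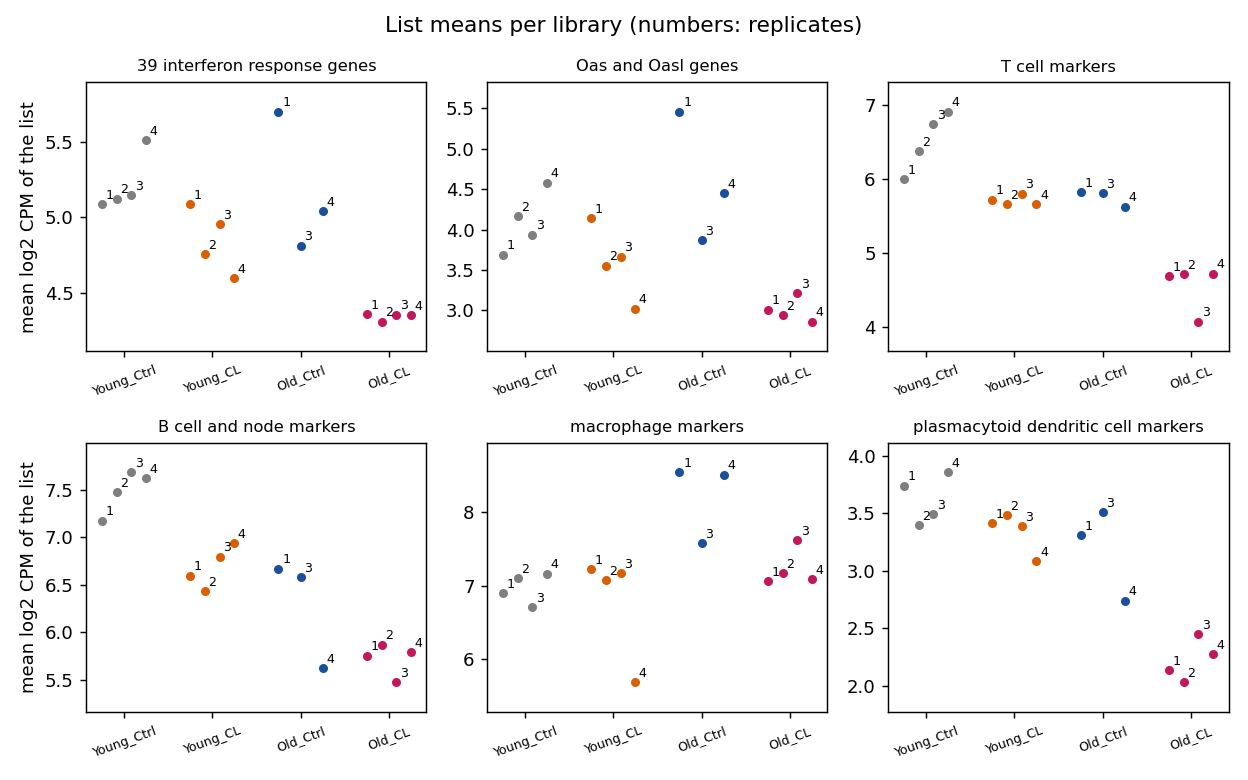
Mean log2 CPM per library of the 39 genes, of the oligoadenylate synthetase genes and of 4 marker lists, with replicate numbers beside the points. The 39 genes and the T cell markers are both lowest in Old_CL. Old_Ctrl 1 is the highest library for the 39 genes and for the macrophage markers (mean 8.53, with Old_Ctrl 4 at 8.50). For the T cell markers it is the highest of the 3 Old_Ctrl libraries (5.83, against 5.81 and 5.63) and lies below the Young_Ctrl libraries.

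Responses of members with and without an ISRE core can be set side by side. Of the 15 members with the core 11 were lower at 12 months, with a median log2 change of -0.76. Of the 16 matched members without it 14 were lower, with a median of -0.90. At 2 months the medians were -0.23 with the core and -0.48 without it. The medians of the interaction were -0.57 with the core and -0.29 without it. These are descriptions without a test, and the absence of these letters from 250 bases says nothing about binding elsewhere.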

How the data were processed

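Per the labels' protocols, polyA RNA was extracted with Trizol and the PureLink kit and made into libraries with the TruSeq kit. Per the submitters' processing notes, STAR, featureCounts and Subread were used with the mm9 build, without versions. The deposited values are raw read counts per gene in 1 table, and no reads were realigned. Whether counting used strand is not given in the sources used here. Groups were taken from the age and treatment in the labels. Replicate numbers did not pair the samples.

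Genes were kept with filterByExpr by group, libraries scaled by TMM, and genes tested in edgeR 4.0.16 (R 4.3.3, quasi-likelihood) with a robust dispersion, in 1 model with a mean for each group and 11 residual degrees of freedom, with Benjamini-Hochberg adjustment over 15288 genes. The 5 contrasts were the effect of CL at each age, that of age in each treatment, and the interaction (response to CL at 12 minus that at 2 months). The SE is the size of the log2 change divided by the root of the F statistic. CPM uses TMM-scaled totals, and list means use log2 CPM with a prior count of 2. A gene at 3 counts stands at 0.0538 to 0.497 CPM, depending on the library.

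The members and the lists of pathway and marker genes were chosen with earlier results of these data known. Every member may be named, and in each role the 3 with the smallest p (2 in the ISG15 role) have their value in every library. Of the pathway list, the receptor genes, Ifnb1 and Ifng and the 3 per role with the smallest p are named; a result that this rule allows is not reported here. The few other genes named were singled out after their values were seen. The promoter table matched 31 members by symbol.

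The alternatives changed the scaling (RLE, upper-quartile), the tool (limma-voom with limma 3.58.1, or DESeq2 1.42.0), the filter (none, or a CPM of 1 or more in 3 libraries with a mean count of 10 or more) or the samples (the compared groups alone, or without single libraries). A replicate block was also fitted. After the data were seen 4 were added: Old_CL 1, 2 and 4 summed, the 5 muscle-rich libraries (muscle marker mean above 6 on the log2 CPM scale) left out, and the lymphocyte or the macrophage marker mean as a covariate. The procedure was tested on simulated data.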

Additional observations from a re-analysis of the deposited data

Results flagged for a closer look

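Among 60 sets of libraries examined (20 genes with values per library, in the 3 groups of 4), 5 held a library far from the others, and chance gives about 1 in 20. Old_Ctrl, with 3 libraries, was not examined, so Old_Ctrl 1 could not be flagged. Ddx58 was low in Old_CL 3 (35.9 CPM, with the others from 43.6 to 44.0). Ifit1 and Zbp1 were high in Young_Ctrl 4 (30.0 CPM with the next at 18.1, and 58.3 CPM with the next at 39.9). Irf8 was low in Young_Ctrl 1 (129 CPM, with the next at 169.8), and Oas3 was high in Young_CL 1 (12.5 CPM, with the next at 7.29). Young_Ctrl 4 was the highest of all 15 libraries for 15 members and Old_Ctrl 1 for 19.

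The response to CL at 12 months minus that at 2 months passed the interaction test of edgeR for 5 members, with log2 differences of -1.62 for Oasl2, -1.30 for Rtp4, -1.26 for Ifitm3, -1.16 for Bst2 and 0.82 for Gbp6. The first 4 responded more negatively at 12 months in the fit, and Gbp6 rose at that age.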

How the results depend on the processing

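Of 268 counts of called members under alternatives, 186 stayed within 1.5 times. With CL at 12 months, 24 to 32 members were lower and 1 to 1 higher when single libraries were left out, and 28 to 32 were lower under the other planned settings. At 2 months the ranges without single libraries were 14 to 19 lower and 0 to 1 higher. For age they were 3 to 15 lower and 2 to 7 higher under vehicle, and 16 to 27 lower and 1 to 2 higher under CL. For the interaction they were 1 to 12 lower and 0 to 1 higher. Leaving out Old_Ctrl 1 gave the lowest count at 12 months (24) and the highest of members lower with age under vehicle (15). Leaving out Old_Ctrl 4 gave 3 of the latter, and leaving out Old_Ctrl 3 gave 7 higher with age and 12 lower in the interaction.

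The 1 member higher with CL at 2 months became 0 with RLE or upper-quartile factors, without a filter, with Old_CL 1, 2 and 4 summed, without the muscle-rich libraries and with the lymphocyte covariate. For age under vehicle the 4 higher became 2 with limma-voom and 2 with only the groups of the comparison, which also gave 2 lower. The 4 members lower in the interaction became 2 with limma-voom, 8 with DESeq2 and 2 without a filter. The replicate block gave 2 higher with age under vehicle, 2 lower in the interaction and 30 lower with CL at 12 months. Deviations of samples with the same number correlated from -0.35 to 0.34 (median 0.001, 21 pairs, 6 above 0.1), so the numbers are not a pairing.

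With Old_CL 1, 2 and 4 summed, 13 members were lower with age under CL, and 0 and 0 were called lower and higher in the interaction. Without the muscle-rich libraries, which leaves 1 Young_CL and 2 Old_Ctrl libraries, 5 were lower with CL at 2 months, 7 higher and 4 lower with age under vehicle, 0 higher and 1 lower with age under CL, and 0 in the interaction. With Young_CL 4 as the only Young_CL library, Ifitm3 with CL at 2 months, not called with all libraries, turned negative (-0.91). Ifi44 with age under CL became 0.15 in the same fit. With the lymphocyte covariate 1 member was lower with CL at each age, and 0 were higher or lower with age under either treatment. Signs then turned for Irf8 (0.042) and Trim30a (0.015) with CL at 2 months, Ddx58 (0.15) with CL at 12 months, Gbp7 (0.028) and Ifi47 (0.25) with age under vehicle, and Irf8 (0.051), Irf9 (0.10), Ddx58 (0.18), Gbp7 (0.17), Ifi47 (0.13) and Trim30a (0.018) with age under CL. With the macrophage covariate 17 members were lower with CL at 12 months, 0 higher and 2 lower with age under vehicle, and 0 higher and 1 lower in the interaction. Oas1a and Oasl2 with age under vehicle became -0.068 and -0.27. The covariates and the summed or omitted libraries were chosen after the data were seen, and leave fewer samples or less difference between groups. Shares of all tested genes are not set beside the counts in this section. The cause of the other changes was not tested. With 3 Old_Ctrl libraries, of which 1 had 6495373 counts, the vehicle level at 12 months is the least precise.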
